A study of Homo sapiens with 12 samples.

Results

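DPPA4, a chromatin-binding protein of early embryos and pluripotent stem cells, was 1.85-fold higher after knockdown of ZCCHC17 in human neurons made from induced pluripotent stem cells (iPSCs). It is described here with 9 other pluripotency genes: DPPA2, POU5F1, NANOG, LIN28A, LIN28B, L1TD1, TDGF1, ZFP42 and SALL4. These 10 genes were taken by symbol from the 59653 gene symbols of the count table. DPPA4 was chosen by its measured rise in this comparison, in the same 12 libraries, so its values are given as a description with no test. The other 9 were named for their known role in pluripotent cells, though with earlier results of these data known. The question asked of them is whether the rise of DPPA4 came with theirs.

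The study sequenced total RNA from iPSC-derived neurons of the IMR-90 line, a line of fibroblast origin, in 12 libraries. A group of 6 libraries came from cultures that received a negative control siRNA (siNC), and the other group, also of 6, from cultures that received an siRNA against ZCCHC17, an RNA-binding protein (siZCC). Both groups share the cell line, the labelled cell type and the library kit, and the sample titles also carry the letters NPC, whose meaning the labels do not give. The labels do not say whether the libraries of a group came from separate cultures, so the p-values measure only the spread between these libraries, which may be technical. Because these are bulk samples of a single line, fewer cells of a type and less RNA per cell cannot be told apart.

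POU5F1 (OCT4) and NANOG are transcription factors at the core of the network that keeps embryonic stem cells undifferentiated, and SALL4 is a zinc-finger factor that works with them. DPPA2 and DPPA4 are neighbouring paralogues with a SAP domain that act as a pair on chromatin, where they keep promoters of developmental genes open to activation. LIN28A and LIN28B bind the precursors of let-7 microRNAs and block their maturation. L1TD1 is an RNA-binding protein of pluripotent cells, TDGF1 (Cripto) is a co-receptor for Nodal signals, and ZFP42 (REX1) is a widely used marker of the undifferentiated state. Most of these genes are silenced as cells become neural, while LIN28B can persist for a time in dividing progenitors.

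DPPA4 lies at chr3:109326141-109337572 on the minus strand of GRCh38, and DPPA2 lies 9624 bases below it, at chr3:109293788-109316517, on the same strand. The 250 bases upstream of each RefSeq start site (GRCh38.p14, 5′ to 3′ on the gene's strand) are shown because the genes are adjacent paralogues whose RNA levels differed widely here, and because CG dinucleotides, in capitals, are where DNA methylation silences such promoters. The window is chr3:109337547-109337796 for DPPA4 and chr3:109316518-109316767 for DPPA2.
DPPA4: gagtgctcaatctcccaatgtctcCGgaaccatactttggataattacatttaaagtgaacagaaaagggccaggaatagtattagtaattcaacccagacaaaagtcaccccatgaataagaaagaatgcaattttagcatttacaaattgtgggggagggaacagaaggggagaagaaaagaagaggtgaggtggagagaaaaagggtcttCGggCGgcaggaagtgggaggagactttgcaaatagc
DPPA2: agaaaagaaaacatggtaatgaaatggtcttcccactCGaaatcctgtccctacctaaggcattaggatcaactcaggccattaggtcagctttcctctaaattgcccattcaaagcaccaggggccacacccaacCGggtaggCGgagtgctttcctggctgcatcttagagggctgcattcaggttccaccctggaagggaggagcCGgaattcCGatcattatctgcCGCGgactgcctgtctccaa
The DPPA4 window holds 3 CG dinucleotides and the DPPA2 window 7. The median over 35116 RefSeq windows of the same length was 11, and 29.3% of them held no more than DPPA4's. DNA methylation was not measured in these libraries.

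NANOG carries the textbook binding motif of this network, a composite of an octamer site for POU5F1 and an adjoining site for SOX2. The composite was searched on both strands as TTTGCAT, any base, then ACAATGG, and it is in capitals in the NANOG window, chr12:7789152-7789401 on the plus strand.
NANOG: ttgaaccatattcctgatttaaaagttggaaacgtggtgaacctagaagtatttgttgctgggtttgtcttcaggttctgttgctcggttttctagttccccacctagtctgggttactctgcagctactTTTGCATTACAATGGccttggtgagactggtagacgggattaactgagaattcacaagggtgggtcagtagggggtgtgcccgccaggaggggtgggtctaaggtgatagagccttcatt
Only 2 of the 35116 windows held the composite, a share of 0.0057%. None of the other windows examined held it (DPPA4, DPPA2, L1TD1, ZFP42 and 2 alternative starts of LIN28B). The letters searched are those of the NANOG window and no mismatch was allowed. Variants of the motif were not searched, so the rarity and the absences describe this exact string only. The octamer ATGCAAAT alone stood in 1.63% of all windows, and CCATTGT, which overlaps the composite, in 2.62%. A match describes these letters and was not tested as a binding site.

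The libraries held 76115083 to 120023356 gene counts each, and 24671 genes passed a filter on low counts. Values below are CPM, gene counts scaled to a library size common to all libraries, after a TMM correction for library composition. The targeted gene, ZCCHC17, was at 56.9 ± 2.49 CPM (SD, n = 6) in siNC and 9.999 ± 0.507 CPM (n = 6) in siZCC, or 17.6% of control, with every library on the side its label gives. Neuronal transcripts were abundant, with MAP2 at 1027 ± 104 and DCX at 649 ± 41.8 CPM in siNC, but RBFOX3 (NeuN), a marker of mature neurons, was at only 1.27 ± 0.148 CPM. Progenitor and astrocyte transcripts were also high in siNC, with SOX2 at 621 ± 20.6, NES at 1118 ± 58.8 and GFAP at 616 ± 82.0 CPM, so the labelled neurons also carried RNA of other neural cell types.

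DPPA4 stood at 3.74 CPM in the lowest, 4.51 in the median and 4.71 in the highest siNC library. In siZCC it stood at 7.32, 7.99 and 9.36 CPM in the same order. Every siZCC library lay above every siNC library, and the gap between the groups was wider than the range inside either. The means were 4.36 ± 0.393 CPM (SD, n = 6) and 8.08 ± 0.745 CPM (n = 6), a log2 fold change of 0.89 with a standard error of 0.0719. These levels rest on 367 to 560 counts per siNC library and 548 to 883 per siZCC library. Among the 12625 genes that averaged 5 CPM or more, 4 had a larger log2 fold change than DPPA4.

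**Figure D1:**
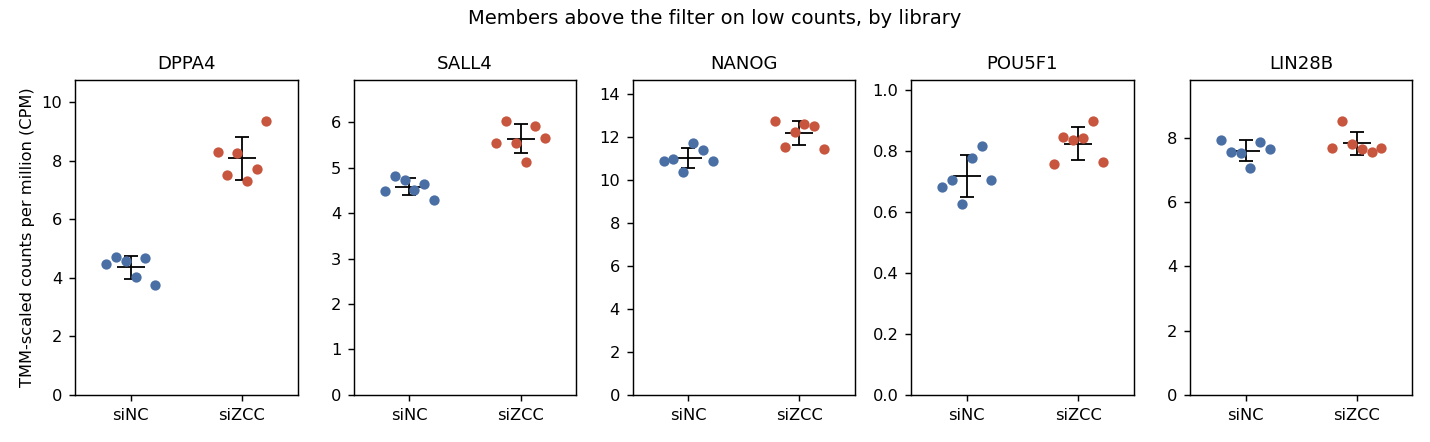
TMM-scaled CPM (vertical axis, from 0) of the 5 genes above the filter on low counts, 1 point per library, with the mean and SD of each group of 6. DPPA4 and SALL4 are the genes whose siNC and siZCC points do not overlap; the DPPA4 points run from 3.74 to 4.71 and from 7.32 to 9.36.

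DPPA4 shared little of its longest transcript with transcripts of other genes, and exon sequence outside that transcript was not compared. Of the 75-base words in its longest GENCODE transcript, 0.876% also occur in a transcript of another gene, compared with 26.6% for POU5F1, 25.4% for TDGF1 and 11.96% for NANOG. SALL4 and ZFP42 shared none. Only the few nearest annotated genes on each side of DPPA4 were read. Apart from DPPA2 they are processed pseudogenes, a small nuclear RNA and a long noncoding RNA, and no other protein-coding neighbour was examined. The long noncoding RNA LINC01205, 72418 bases above DPPA4, had 10 counts over all siNC and 9 over all siZCC libraries. None of the other neighbours apart from DPPA2 exceeded 2 counts in a group.

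The libraries also fell into sets by IL1B, an inflammatory cytokine, which was above 1 CPM in siNC 2, 3 and 6 and in siZCC 1, 4 and 5 and at 0.1 CPM or less in the rest. The log2 fold change of DPPA4 was 0.84 among the 6 libraries high in IL1B and 0.93 among the 6 low in it. Since every siZCC library was above every siNC library in the series, the same order within each set was given in advance. These 2 values are a description, and the split was added after seeing the data.

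Among the other 9 genes, SALL4 and NANOG rose with DPPA4, POU5F1 and LIN28B did not pass the test, and 5 were too scarce for it. Of the 4 tested, 2 were called higher at a threshold of 0.05 (quasi-likelihood test of edgeR, p-values adjusted by Benjamini and Hochberg over all genes), and the log2 fold changes of all 4 were positive. Over all 24671 genes tested, 22.2% were called, 11.4% higher and 10.8% lower. The median log2 fold change of the 4 was 0.17, compared with -0.0016 for all genes tested. Only 1 of the 4, SALL4, had groups that did not overlap, compared with 9.74% of all genes in either direction and 5.25% higher in siZCC. With 4 genes tested, these shares say little about pluripotency genes as a group.

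SALL4 (chr20:51782331-51802520, minus strand) stood at 4.30, 4.58 and 4.81 CPM in the lowest, median and highest siNC libraries and at 5.13, 5.60 and 6.03 CPM in siZCC. All siZCC libraries were above all siNC libraries, though by far less than for DPPA4. The means were 4.58 ± 0.186 and 5.64 ± 0.321 CPM (SD, n = 6 each). The log2 fold change was 0.30 with a standard error of 0.0542 (edgeR adjusted p = 8.18e-04). It was 0.26 (edgeR adjusted p = 0.0919) among the 6 libraries high in IL1B and 0.34 (edgeR adjusted p = 0.0265) among the 6 low in it.

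NANOG (chr12:7787794-7799141, plus strand) stood at 10.4, 10.9 and 11.7 CPM in the lowest, median and highest siNC libraries and at 11.4, 12.4 and 12.8 CPM in siZCC. The groups overlapped, with the lower siZCC libraries inside the siNC range. The means were 11.04 ± 0.466 and 12.2 ± 0.563 CPM (SD, n = 6 each), a log2 fold change of 0.14 with a standard error of 0.0433 (edgeR adjusted p = 0.0251). The call depended on single libraries. It was lost without siNC 1, siNC 3, siZCC 1, siZCC 3 or siZCC 4 (edgeR adjusted p = 0.0502 to 0.0645), and with no filter on low counts (edgeR adjusted p = 0.0641). The log2 fold change was 0.23 (edgeR adjusted p = 0.0349) among the 6 libraries high in IL1B and 0.05 (edgeR adjusted p = 0.670) among the 6 low in it.

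Some NANOG reads could come from processed copies elsewhere in the genome, since the counting rule for reads with several matches is not given in the sources used here. The copy NANOGP8 was listed with a log2 fold change of 0.35 (edgeR adjusted p = 0.126). Of the 36 pseudogene symbols of these 10 genes in the table, 8 had a mean of at least 10 counts and 0 of the 8 passed the same test, with NANOGP8 and POU5F1P6 (log2 fold change -0.26) under an unadjusted p of 0.05. The lowest adjusted p that any other tool or setting gave for these 2 was 0.0618.

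POU5F1 (chr6:31164337-31180731, minus strand) was low, at 0.625, 0.704 and 0.817 CPM in the lowest, median and highest siNC libraries and 0.756, 0.838 and 0.899 CPM in siZCC. The groups overlapped. The log2 fold change was 0.20 (95% interval -0.01 to 0.40, edgeR adjusted p = 0.157), so a rise of the size seen in SALL4 lies inside the interval and one of the size seen in DPPA4 lies outside it. POU5F1 shares exon sequence with TCF19 on the opposite strand and with several pseudogenes, so its value is uncertain.

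LIN28B (chr6:104936616-105083332, plus strand) stood at 7.07, 7.61 and 7.94 CPM in the lowest, median and highest siNC libraries and at 7.57, 7.70 and 8.53 CPM in siZCC. The groups overlapped, and siZCC 2 was above all siNC libraries. The log2 fold change was 0.04 (95% interval -0.06 to 0.14, edgeR adjusted p = 0.577), and the upper bound lies below the 0.30 of SALL4. The antisense gene LIN28B-AS1 overlaps its exons, and the strand setting of the counting is not given in the sources used here.

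The other 5 genes were near the limit of detection, with 0 to 20 counts per library, where 3 counts correspond to 0.0250 to 0.0401 CPM. DPPA2 had 2, 7, 3, 6, 0 and 2 counts in the siNC libraries and 5, 5, 11, 8, 12 and 10 in siZCC. The siZCC libraries were mostly higher, with the lowest of them inside the siNC range. Over the groups this was 20 against 51 counts, a ratio of 3.24 after scaling to depth (95% interval 1.90 to 5.74, for counting error only). An exact permutation test over libraries, applied to these 5 genes after their values were seen, gave p = 0.0130 (two-sided, unadjusted, n = 6 each; smallest possible 0.00216). When the filter was removed and all genes were fitted, DPPA2 had a log2 fold change of 1.65 with a standard error of 0.481 (edgeR adjusted p = 0.0227).

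LIN28A had 61 counts over the siNC and 44 over the siZCC libraries, a depth-scaled ratio of 0.918 (95% interval 0.608 to 1.37, exact permutation p = 0.812). L1TD1 had 51 and 30 counts, a ratio of 0.748 (0.460 to 1.20, exact permutation p = 0.478), and 19 of the siNC counts came from siNC 4 alone. TDGF1 had 12 and 4 counts, a ratio of 0.424 (0.0997 to 1.40, exact permutation p = 0.310). For all 3 the groups overlapped and a difference was not detectable at this depth. ZFP42 was at 0 in 11 of the 12 libraries with a single count in siZCC 4, and 0 counts over the siNC group allow a level of up to 0.00444 CPM.

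**Figure D2:**
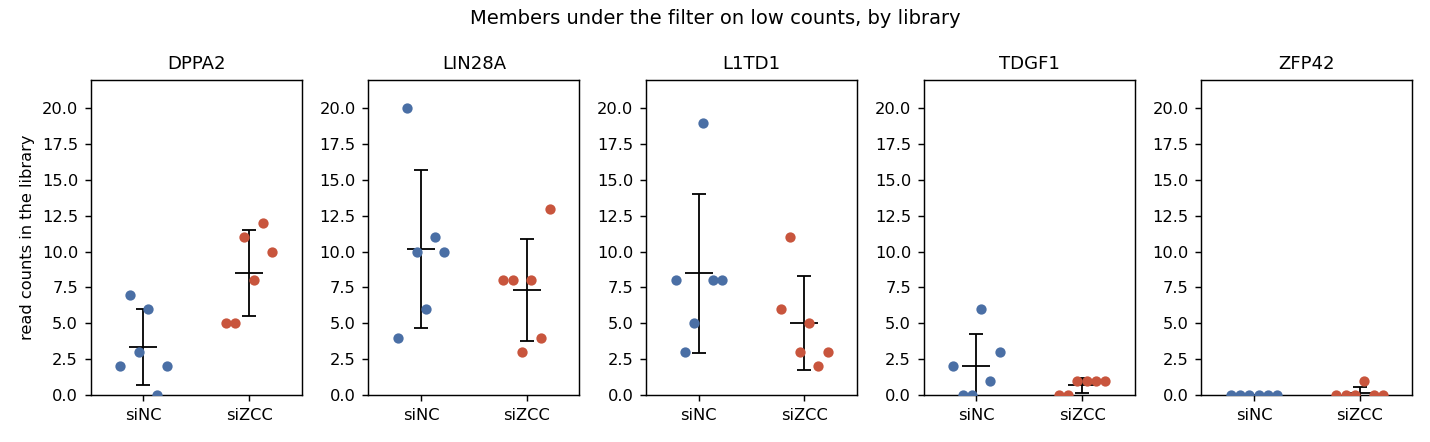
Read counts per library (vertical axis, not scaled to depth) of the 5 genes under the filter on low counts, with the mean and SD of each group of 6. DPPA2 runs from 0 to 7 counts in siNC and from 5 to 12 in siZCC, LIN28A, L1TD1 and TDGF1 overlap between the groups, and ZFP42 has a single count in all.

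Per length, the genes fell into a tier that was transcribed and a tier at the floor. In CPM per kilobase of union exon sequence in siNC, NANOG had 2.05, LIN28B 1.27, DPPA4 0.873 ± 0.0786 (SD, n = 6), SALL4 0.793 and POU5F1 0.248. The remaining 5 genes had at most 0.0223. In siZCC the level of DPPA4 was 1.62 ± 0.149, which moved it past LIN28B at 1.30 but not past NANOG at 2.26. The order depends on the length used: with the longest transcript, DPPA4 had 1.43 in siNC and 2.65 in siZCC, above NANOG at 2.35.

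From library to library within a group, no relation of DPPA4 with another of the 10 genes passed the test. Of 9 relations with DPPA4 computed within siNC or siZCC (5 genes in siNC and 4 in siZCC with a mean of at least 10 counts), 1 had an unadjusted p under 0.05 and 0 passed after adjustment, the lowest adjusted p from exact permutation being 0.138. SALL4 was the closest, with Pearson r = 0.87 and Spearman rho = 0.89 over the 6 siNC libraries (exact permutation p = 0.0153 and 0.0333, adjusted 0.138 and 0.300) and r = 0.81 without the 2 farthest libraries. In siZCC the same pair had r = 0.07 (exact permutation p = 0.889, n = 6), and r = -0.999 without the 2 farthest libraries, so that value turns with the libraries kept; both such values rest on 4 libraries. POU5F1 ran the other way in siZCC, at r = -0.72 (exact permutation p = 0.126, n = 6).

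**Figure D3:**
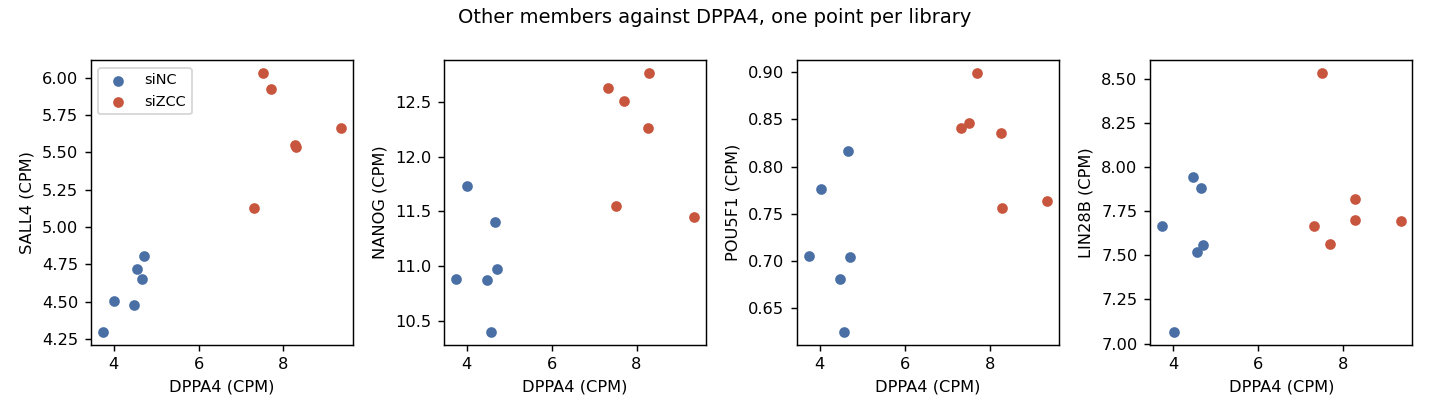
CPM of SALL4, NANOG, POU5F1 and LIN28B (vertical axes, not starting at 0) against CPM of DPPA4 (horizontal axis), 1 point per library, 6 siNC and 6 siZCC. DPPA4 separates the groups along the horizontal axis in every panel, SALL4 also along the vertical axis, and only SALL4 in siNC (r = 0.87) shows points close to a line.

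Likeness to DPPA4 was measured by correlating the deviation of each library from its group mean, over 12 libraries and 12624 genes. The genes most like DPPA4 were GNPDA1 (r = 0.91), PTP4A3 (0.90), SLC25A21-AS1 (0.88), AEN (0.88) and DSCC1 (0.86). These r values were picked as the highest of 12624. Whether they exceed what such picking gives among unrelated genes was not tested. The edgeR values that follow compare siZCC with siNC and do not test likeness to DPPA4. GNPDA1, an enzyme of glucosamine metabolism, rose from 67.9 ± 3.38 to 84.2 ± 3.95 CPM (log2 fold change 0.31, edgeR adjusted p = 2.62e-05). AEN, a nuclease induced by p53, rose by 0.13 on the log2 scale (edgeR adjusted p = 0.00497). PTP4A3, SLC25A21-AS1 and DSCC1 did not pass the test, at 0.05, 0.15 and -0.04.

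Beyond the 10 genes, 61 other genes of the pluripotent state were in the table. Of the 44 above the filter, 5 were higher, 10 were lower and 29 did not pass (edgeR adjusted p under 0.05), with a median log2 fold change of -0.06. Over all genes tested, 11.4% were called higher and 10.8% lower, so the share higher was that of all genes. SOX2, partner of POU5F1 and also a neural progenitor factor, rose from 621 ± 20.6 to 716 ± 19.0 CPM without overlap (log2 fold change 0.20, edgeR adjusted p = 8.08e-05). SFRP2, a secreted Wnt modulator, rose by 0.29, and the kinase PIM2, the growth regulator MYCN and the SALL4 relative SALL2 rose by 0.17, 0.16 and 0.12.

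The 10 genes of this list that fell were LEFTY2, GDF3, TEAD4, IFITM1, PODXL, KLF5, DUSP6, SALL3, DNMT3B and TERF1. LEFTY2, a Nodal inhibitor, fell by 1.20 on the log2 scale, from 3.89 ± 1.28 to 1.68 ± 0.284 CPM (edgeR adjusted p = 2.76e-04). GDF3, a related ligand, fell by 0.71 and IFITM1, an interferon-inducible membrane protein, by 0.59. PODXL, which carries stem cell surface epitopes, fell from 217 ± 35.5 to 149 ± 13.9 CPM, a log2 fold change of -0.55 (edgeR adjusted p = 3.53e-04). The de novo DNA methyltransferase DNMT3B fell by 0.16. E-cadherin (CDH1) and EPCAM, epithelial adhesion proteins of stem cell colonies, did not pass, with log2 fold changes of 0.16 and -0.13, and neither did KLF4, at -0.37. The 17 genes under the filter included PRDM14, TERT, UTF1, FGF4, DPPA3 and DPPA5, and LINC-ROR had 0 counts in every library.

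**Figure D4:**
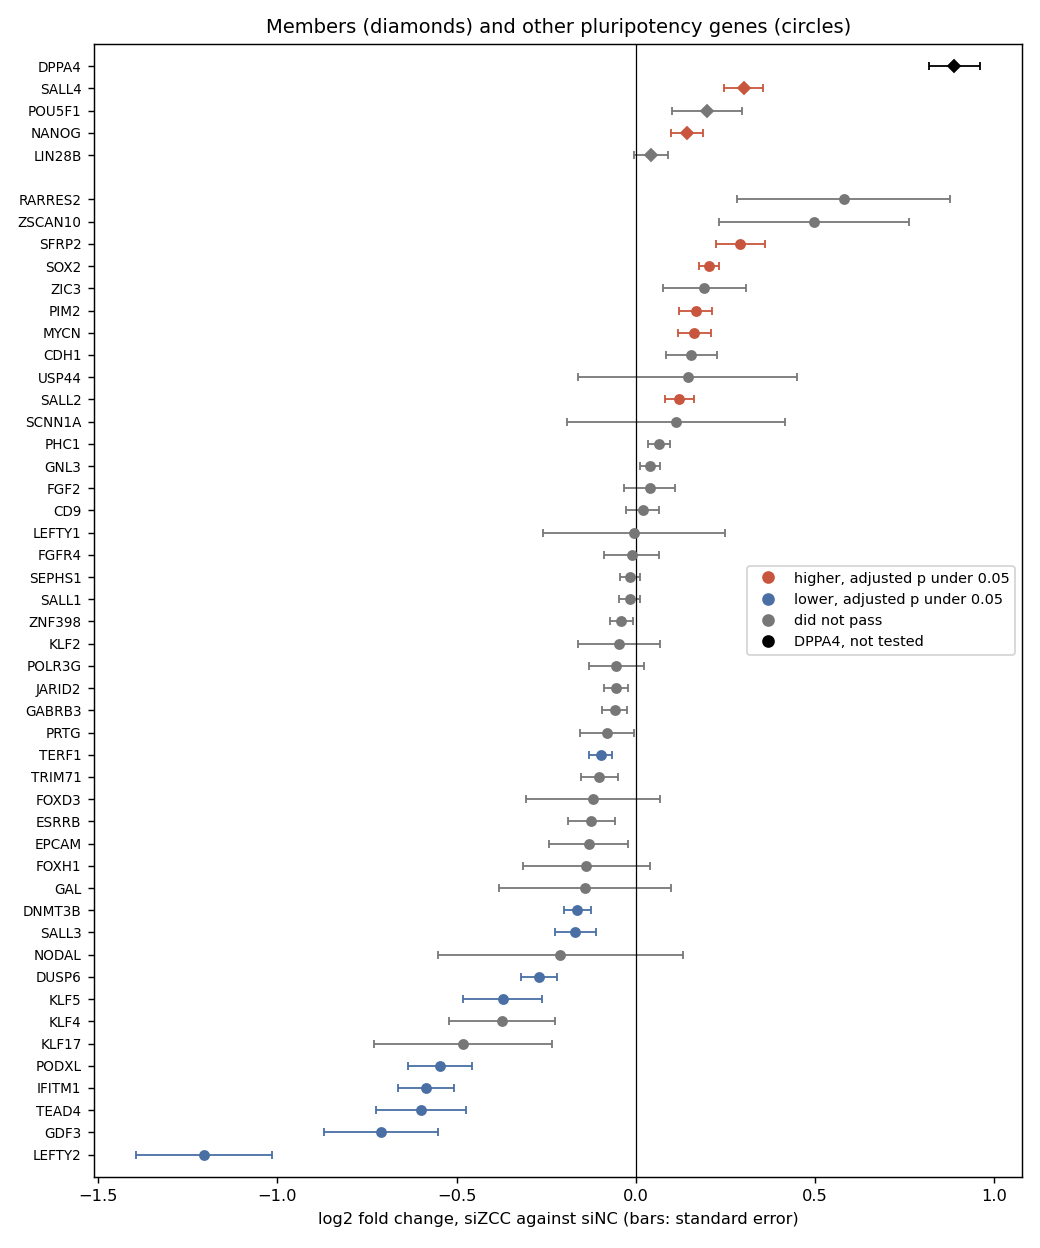
Log2 fold change of siZCC against siNC (horizontal axis; bars are standard errors) for the 5 genes above the filter (diamonds) and the 44 other pluripotency genes above it (circles), coloured by the edgeR call. DPPA4 at 0.89 is the rightmost point, LEFTY2 at -1.20 the leftmost, and the other list has 5 genes called higher and 10 called lower.

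A list of chromatin genes, drawn up around DPPA2 and DPPA4, also held DNA methylation enzymes. One of the LIN28 and let-7 axis also held general microRNA processing genes such as DGCR8. In both lists the called share, in either direction together, was near the 22.2% of all genes. Of 25 tested chromatin genes, EZH1 and TET1 rose, by 0.14 and 0.33 on the log2 scale, and 5 fell (EZH2, UHRF1, TET3, DNMT3B and ASH2L), with a list median of -0.03. KMT2B, a histone methyltransferase, was at 112 ± 4.68 and 114 ± 3.37 CPM and did not pass (edgeR adjusted p = 0.620). Of 26 tested genes of the LIN28 and let-7 axis, those that rose included HMGA1, MYCN and IGF2BP2 and those that fell included MYC and DGCR8, with a list median of -0.02. TRIM71 and HMGA2, targets of let-7, did not pass, at -0.10 and -0.06.

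Genes of genome activation in the early embryo, a programme in which DPPA2 and DPPA4 take part, were mostly at or near 0. Of the 23 listed, 5 were tested, and 1 of them, CCNA1, fell by 0.33 (edgeR adjusted p = 0.0233). Germ line genes, many of which are silenced by promoter methylation in somatic cells, had 15 of 30 above the filter, of which 3 rose and 2 fell, with a median of -0.02. Among all 24671 genes tested, 11.4% were called higher and 10.8% lower. Counts this small say little about either group of genes. PIWIL2, a protein of the piRNA pathway, rose from 1.44 ± 0.262 to 2.51 ± 0.383 CPM (log2 fold change 0.80, edgeR adjusted p = 2.53e-04), and MOV10L1 and NANOS2 rose by 0.35 and 0.68. PRDM1 and TFAP2C, factors of germ cell specification, fell by 0.51 and 0.47. The summed level of the germ line list was 20.6 to 21.5 CPM in siNC and 19.9 to 21.4 CPM in siZCC.

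Marker lists of other cell types are given by their counts and sums, beside 11.4% of all genes called higher and 10.8% lower. The 9 pluripotency genes without DPPA4 summed to 23.4 to 24.9 CPM in siNC and 25.9 to 27.2 CPM in siZCC. This sum includes NANOG (means of 11.04 CPM in siNC and 12.2 in siZCC) and SALL4 (4.58 and 5.64), so it restates their rise. Of 25 tested neuron markers 2 rose and 9 fell, and their sum was 6019 to 6769 CPM in siNC and 5539 to 6310 CPM in siZCC. Of 23 progenitor markers 5 rose and 4 fell (8002 to 8311 and 8067 to 8527 CPM), and of 14 tested astrocyte markers 7 rose and 1 fell (3414 to 3658 and 3674 to 4325 CPM). Mesenchymal and fibroblast markers, relevant to the origin of the line, had 1 higher and 6 lower of 14 tested (727 to 1145 and 570 to 857 CPM). Of 30 proliferation genes 22 fell and the rest did not pass (1574 to 1719 and 1258 to 1454 CPM). The neuron, progenitor and mesenchymal sums overlapped between the groups. Those of the astrocyte markers (higher in siZCC) and of the proliferation genes (lower in siZCC) did not. The astrocyte gap, from 3658 to 3674 CPM, was narrower than that of a single member, CLU (900 to 1002 CPM), so it depends on CLU. Among the other astrocyte markers, GFAP and GJA1 did not pass and AQP4 fell.

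Lists for cell types outside the central neural lineage had few genes above the filter, so their called shares rest on small numbers. Endoderm and mesoderm markers had 6 of 17 above the filter, 1 higher and 1 lower, with sums of 72.4 to 79.2 CPM in siNC and 70.8 to 75.6 CPM in siZCC. Neural crest markers had 7 of 12 above it, 1 higher and 2 lower (174 to 212 and 176 to 208 CPM). Microglia and immune markers had 6 of 12 above it, which did not pass (lowest edgeR adjusted p = 0.723, for CD14; 4.08 to 6.02 and 4.19 to 6.02 CPM). No marker of these cell type lists was at 0 in every library. The part of these shifts in cell type markers in the values of DPPA4, SALL4, NANOG and DPPA2 was not tested.

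**Figure D5:**
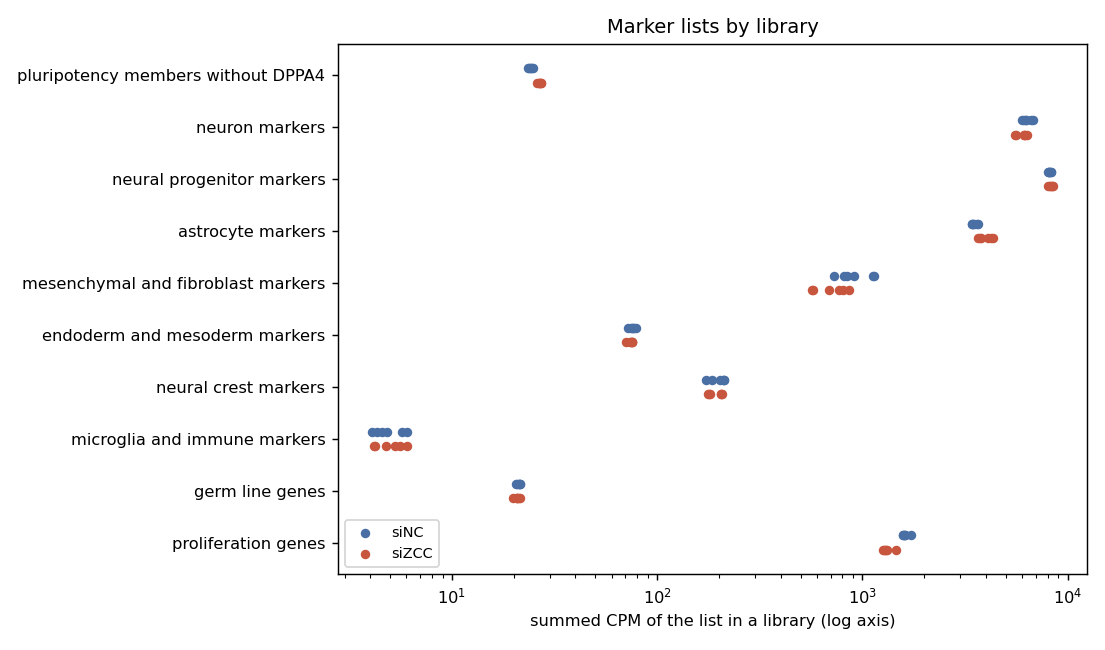
Summed CPM of each marker list in a library (horizontal log axis), 1 point per library, siNC above siZCC in each pair. The pluripotency sum without DPPA4 (23.4 to 24.9 in siNC, 25.9 to 27.2 in siZCC), the astrocyte sum (3414 to 3658 and 3674 to 4325) and the proliferation sum (1574 to 1719 and 1258 to 1454) separate the groups; the other sums overlap.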

How the data were processed

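Gene counts per library were deposited by the authors as a single table of raw read counts, with 1 column per library and gene symbols as names. Per the submitters' processing notes, the tools were bcl2fastq 2.17, STAR 2.7.6a and featureCounts 2.0.1 on GRCh38; the annotation, the strand setting and the treatment of reads with several matches are not given in the sources used here. Per the labels' protocols, RNA was taken up in Qiazol and the library kit was NEBNext Ultra II Directional.

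Samples were grouped by the siRNA in their labels. Counts were filtered with edgeR's filterByExpr, scaled by TMM and tested with glmQLFit and glmQLFTest (edgeR 4.0.16, R 4.3.3), siZCC against siNC over all genes, with Benjamini-Hochberg adjustment and a threshold of 0.05. CPM are on the TMM scale. The fit was checked on simulated counts. Genes under the filter were compared by summed counts with an exact 95% interval, which covers counting error only because reads without molecular identifiers are not independent molecules, and by an exact permutation test over libraries. Positions and transcript sequences come from GENCODE release 29 and upstream windows from RefSeq (6 of the 10 genes had an entry).

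The members and lists were chosen with earlier results of these data known. Named genes are the 10 members, the genes most like DPPA4 (the 5 highest Pearson correlations of deviations from group means among genes of at least 5 CPM), and called or defining genes of the lists, of which examples are printed. Alternatives were other scalings (DESeq2 size factors, upper quartile), DESeq2 1.42.0 as the test, other count filters, another prior count, a replicate block, the replicate left out in turn and, added after seeing the data, the libraries split by IL1B. Replicate numbers were not treated as pairs in the main fit.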

Additional observations from a re-analysis of the deposited data

Results flagged for a closer look

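In groups of 6 libraries, a library was singled out when its gap to the nearest other library exceeded Dixon's 95% critical share of the group's range. Of 62 groups examined, 6 met this, where chance gives about 1 in 20, or 3.1. The siNC library 4 had L1TD1 at 0.208 CPM, where the rest of its group ran from 0.0254 to 0.0717 (gap 0.747 of the range). In siZCC library 2, LIN28B was at 8.53 CPM against 7.57 to 7.82 (gap 0.735), which is the highest value of the gene in the series. In siZCC library 6, POU5F1B, a transcribed copy of POU5F1, was at 0.678 CPM against 0.279 to 0.378 (gap 0.753).

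For the lists, the chromatin genes summed to 2315 CPM in siNC library 3 against 2510 to 2587 in the others (gap 0.716). The proliferation genes summed to 1719 CPM in siNC library 5 against 1574 to 1618 (gap 0.694) and to 1454 CPM in siZCC library 5 against 1258 to 1322 (gap 0.673). DPPA4 and SALL4 had no such library in either group.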

How the results depend on the processing

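DPPA4 kept a log2 fold change of 0.88 to 0.89 under other scalings, filters, tools and the replicate block, and of 0.84 to 0.92 without any 1 library. A fit with a replicate block called 4902 genes against 5481, the same 2 of the other genes (SALL4 adjusted p = 0.00315, NANOG adjusted p = 0.0377 by edgeR) and 92 list genes against 94. Deviations of same-numbered libraries correlated at -0.08 to 0.02. Whether the numbers mark libraries that were handled together was not tested. Leaving out each library gave 4484 to 5626 genes called in all, 1 to 2 of the other members, 82 to 92 list genes and 11 to 16 of the other pluripotency genes. Without the filter the 2 members called were SALL4 and DPPA2, and NANOG was lost. The 6 libraries high in IL1B alone gave 2043 genes called in all, 1 member (NANOG) and 58 list genes, and the 6 low in it gave 1602, 1 member (SALL4) and 51. Fewer libraries were tested there. With the longest transcript in place of the union of exons, the length being smaller, DPPA4 in siZCC had 2.65 rather than 1.62 CPM per kilobase. Upper quartile scaling called 2511 genes higher and 2905 lower, against 2818 and 2663.

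Over 44 single genes and 876 values, 807 kept their direction and side of the threshold, 68 lost the call and 1 changed sign: POU5F1B, at -0.08 on the log2 scale, ran from -0.33 without siZCC replicate 6 to 0.00039 without siNC replicate 2 (the cause was not tested). Among the list genes named above, SALL2, TERF1, SALL3, IGF2BP2, ASH2L, NANOS2 and MOV10L1 lost the call under at least 1 other scaling, filter or tool. With 1 library left out, SALL2, SALL3, ASH2L and NANOS2 each lost it in 8 of 12 fits. TERF1 and MOV10L1 lost it in 6, KLF5 in 5 and IGF2BP2 in 1. The early embryo list, where CCNA1 was the 1 call, had 0 to 1 called in these fits. Depth limits DPPA2, LIN28A, L1TD1, TDGF1 and ZFP42, for which 12 libraries hold too few counts to show a small change.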
